A study of Mus musculus with 3 samples.

Results

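FLI1 and RUNX1 occupancy was examined at 9 genes of apoptosis: Bcl2l1, Bcl2 and Mcl1, whose products keep cells alive, Bak1 and Bax, whose products open the outer mitochondrial membrane, Bcl2l11, which encodes the death activator BIM, and the caspase genes Casp8, Casp9 and Casp12. The genes were chosen by name, as genes of platelet lifespan and caspases, with Casp12 added as a target of NF-E2, another MK factor. No read count entered the choice, but earlier results of these data were known when it was made. All 9 were found among the 22367 protein-coding genes of the GENCODE M1 annotation on the mm9 genome. The data are 3 ChIP-seq libraries of mature megakaryocytes (MK), the cells that release platelets, from wild-type fetal livers of CD1 mice, cultured for 5 days with thrombopoietin. The 3 groups come from the same kind of cell and have no treatment: 1 library was made with an antibody against FLI1, 1 with an antibody against RUNX1, and 1 from input chromatin without precipitation. The labels give embryonic day 15 for the livers, and the study's methods give another day. DNA from several precipitates was pooled into each ChIP library, so that there are no replicates, and no test or p-value is given. Intervals in brackets are 95% intervals (exact, conditional on 2 Poisson counts) and cover counting error only.

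Platelets and megakaryocytes live as long as pro-survival proteins of the BCL2 family hold the pore-forming proteins BAK and BAX in check. BH3-only proteins such as BIM release that hold, after which cytochrome c leaves the mitochondrion and activates caspase 9. Death receptors at the cell surface reach the same executioner caspases through caspase 8. FLI1 is an ETS factor that binds sequences around GGAA, and RUNX1 binds sequences such as TGTGGT. ChIP-seq reads give the occupancy of DNA by a factor, and neither the expression of a gene nor the effect of the factor on it.

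After repeated positions and the mitochondrial chromosome were left out, the FLI1 library held 62946422 reads, the RUNX1 library 3973856 and the input library 21745220. The RUNX1 file holds far fewer reads than the study's supplement states for this antibody, and RUNX1 values here describe the file as deposited, not all reads of the library. It gave 0.85 reads for a 400-bp bin at the genome-wide rate, against 13.5 for FLI1 and 4.65 for input. Modest RUNX1 occupancy was not detectable at single sites at this depth, and a count of 0 reads at a site allows up to 3, a 1-sided upper limit. Within 2 kb of the transcription start site (TSS), FLI1 reached at least 2-fold over input, after scaling to library depth, at 7 of 11 megakaryocyte marker genes, at 0 of 5 erythroid, 0 of 6 lymphoid and 1 of 7 granulocyte and monocyte markers, the last being Mpo at 2.44-fold. RUNX1 reached it at 1 of the 11 megakaryocyte markers and at 0 of the other markers. Of all genes, 25.2% reached it for FLI1 and 16.7% for RUNX1. These markers show occupancy and do not measure which cells the culture held.

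At the TSS, FLI1 was at least 2-fold over input at 6 of the 9 genes: Mcl1, Bcl2l1, Casp9, Bcl2l11, Casp12 and Casp8. Of all protein-coding genes with an input read in this window, 25.2% reached this limit. RUNX1 was at least 2-fold over input at 3 of the 9 genes, Mcl1, Casp9 and Bcl2l1, against 16.7% of all genes. All 3 were also past the limit for FLI1, a combination found at 10.9% of all genes. The median of the 9 genes was 2.55-fold for FLI1 and 1.90-fold for RUNX1, against 1.26-fold and 1.17-fold over all genes. Ordered by FLI1, the genes ran from Mcl1 through Bcl2l1, Casp9, Bcl2l11, Casp12, Casp8, Bak1 and Bax to Bcl2. No gene in this order differed from the next by more than counting error. The widest ratio between neighbours was that of Mcl1 to Bcl2l1, at 1.35 with an approximate interval of 0.847 to 2.14. The ends of the order did not overlap, since the interval of Mcl1 began above the upper bounds of Bcl2l11, Casp8, Bak1, Bax and Bcl2. With a limit of 3-fold, the count was 3 for FLI1, against 9.19% of all genes, and 0 for RUNX1, against 4.18%. Against the genome-wide rate of each library in place of input it was 4 for FLI1, with 17.1% of all genes, and 1 for RUNX1, with 5.64%. Against that rate the FLI1 calls of Casp8, at 1.66-fold, and Casp12 ended, as did the RUNX1 calls of Bcl2l1, at 1.76-fold, and Casp9, at 1.88-fold.

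**Figure D1:**
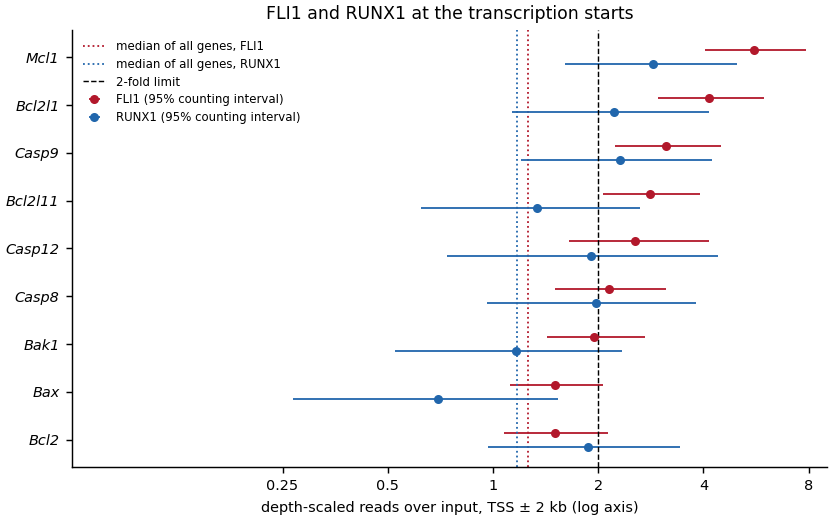
Depth-scaled FLI1 (red) and RUNX1 (blue) reads over input within 2 kb of the TSS of each gene, on a log axis, with 95% counting intervals from 1 library each. Mcl1 and Bcl2l1 lie highest for FLI1 at 5.58-fold and 4.15-fold, and Bax and Bcl2 lie lowest at 1.51-fold and 1.50-fold.

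Mcl1, which encodes a short-lived pro-survival protein, carried the most FLI1 at its start. The window held 646 FLI1, 21 RUNX1 and 40 input reads, which is 5.58-fold (4.05 to 7.88) over input for FLI1 and 2.87-fold (1.61 to 4.99) for RUNX1. These values stood at the 99.2 percentile of all genes for FLI1 and at the 95.1 percentile for RUNX1. In a narrower window of 1 kb on each side, FLI1 was 12.5-fold over input. The most FLI1 reads were in a 400-bp bin at the TSS that held 357 FLI1, 5 RUNX1 and 4 input reads, and 2 further bins of the window were FLI1-rich, with 126 and 41 FLI1 reads. Here the base covered by most FLI1 reads, called the summit, lay 5 bp upstream of the TSS, and 236 reads drawn out to 150 bp covered it. Only 0.125% of the 21532 FLI1-rich regions of the genome had as many or more. A region is a run of touching FLI1-rich bins, and a bin is FLI1-rich where FLI1 is at least 3-fold over the reads expected from input. As regions were picked by their FLI1 reads, a FLI1 ratio well above 1 at a region was set by the choice. An ETS match here means CAGGAA or CCGGAA on either strand, so that other sequences with GGAA are not counted. The stretch below is the ETS match nearest this summit, at chr3:95462601-95462630 on the plus strand of mm9, with the match in capitals.
Mcl1 start: cgggccagccctCCGGAAacgcccgcccct

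Mcl1 had 7 further regions, and with 9 FLI1-rich bins among 111 its territory, the gene with 20 kb on each side, was the most densely occupied of the 9. The 7 regions lay 13.3 and 7.91 kb upstream, in the first kilobase of the gene, in its 3′ part and 10.5, 15.6 and 17.2 kb downstream of the TSS. The site 7.91 kb upstream held 132 FLI1, 2 RUNX1 and 0 input reads within 200 bp of its summit. Of the sites more than 2 kb from the start it had the bin highest over the expected reads, at 9.21-fold, while the site 13.3 kb upstream had more FLI1 reads, 182. The site 7.91 kb upstream had no ETS match within 50 bp of the summit, though the stretch below holds GGAA between other letters. It had 1 match to the NF-E2 sequence TGANTCA, shown here at chr3:95454679-95454739, plus strand.
Mcl1 upstream: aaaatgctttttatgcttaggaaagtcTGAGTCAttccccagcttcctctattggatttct
The same NF-E2 sequence was found at the intronic site 874 bp into the gene, where 137 FLI1, 4 RUNX1 and 2 input reads were counted, together with the ETS sequence CCGGAA. NF-E2 reads were not used here, so that these are matches of letters alone and do not show which factor binds. Over the whole territory FLI1 was 1.84-fold over input (1.67 to 2.03), and 41.6% of its FLI1 reads fell in the FLI1-rich bins. Outside of them the ratio was 1.15 (1.04 to 1.28).

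Bcl2l1, which encodes the pro-survival protein BCL-XL, had its strongest FLI1 region far inside the gene. At the TSS 444 FLI1, 15 RUNX1 and 37 input reads gave 4.15-fold (2.96 to 5.97) for FLI1 and 2.22-fold (1.13 to 4.14) for RUNX1. The promoter region was 1200 bp wide and held 314 FLI1, 8 RUNX1 and 11 input reads, or 3.98-fold (1.39 to 10.9) for RUNX1. Its summit lay in the 5′ UTR, 40 bp downstream of the TSS. Within 200 bp of the summit there were 171 FLI1, 0 RUNX1 and 8 input reads. An ETS match stood almost at the summit. It is printed from the minus strand at chr2:152657413-152657442, the strand of the gene.
Bcl2l1 start: gctgccgcggcaCCGGAAgtggctgcgctt
The intronic region 42.7 kb downstream of the TSS was 1200 bp wide and held 788 FLI1, 13 RUNX1 and 17 input reads. That is 16.0-fold (9.94 to 27.6) for FLI1 and 4.19-fold (1.87 to 9.15) for RUNX1. Its 3 bins, read along the gene, held 268, 231 and 289 FLI1 reads, or 13.2-, 12.1- and 15.3-fold the expected reads. The summit, with 238 reads over it, was matched or exceeded by 0.0975% of the regions of the genome. FLI1 reads formed 3 crests at this site, with up to 87 reads per 50 bp at the summit, 49 at about 275 bp and 75 at about 725 bp from it. A pair of ETS matches stood close together on opposite strands, printed here from the minus strand at chr2:152614717-152614777.
Bcl2l1 intron: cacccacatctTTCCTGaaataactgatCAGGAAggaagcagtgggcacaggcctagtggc
The other 3 regions of Bcl2l1 were weaker. Those in introns 14.0 and 25.6 kb downstream of the TSS held 115 and 96 FLI1 reads within 200 bp of the summit. The region 16.2 kb upstream, with 97 FLI1 reads, lay at the start of the neighbouring gene Tpx2, which encodes a spindle protein, and cannot be assigned to either gene.

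Bcl2, the founding pro-survival gene of the family, had lower FLI1 at its start than both, while its RUNX1 interval overlapped theirs. The TSS window held 191 FLI1, 15 RUNX1 and 44 input reads, or 1.50-fold (1.08 to 2.13) for FLI1 and 1.87-fold (0.964 to 3.42) for RUNX1. There was no FLI1-rich bin within 2 kb of its TSS. Bcl2 is a long gene, and its 6 FLI1-rich bins of 540 stood apart from each other in introns between 18.3 and 165 kb downstream of the TSS. None of them was RUNX1-rich, and the strongest by coverage had 84 FLI1 reads over its summit, a coverage that 27.1% of all regions matched or exceeded. The 6 sites together had 392 FLI1, 6 RUNX1 and 26 input reads in their bins. The site whose bin was highest over the expected reads, at 6.04-fold, lay 60.5 kb downstream and held 89 FLI1 reads within 200 bp of its summit and both an ETS and a GATA match, printed from the minus strand at chr1:108550294-108550354.
Bcl2 intron: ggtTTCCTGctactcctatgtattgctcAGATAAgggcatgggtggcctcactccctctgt
Over the whole territory FLI1 stood at 1.01-fold over input (0.960 to 1.05) and RUNX1 at 0.995-fold (0.898 to 1.10).

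**Figure D2:**
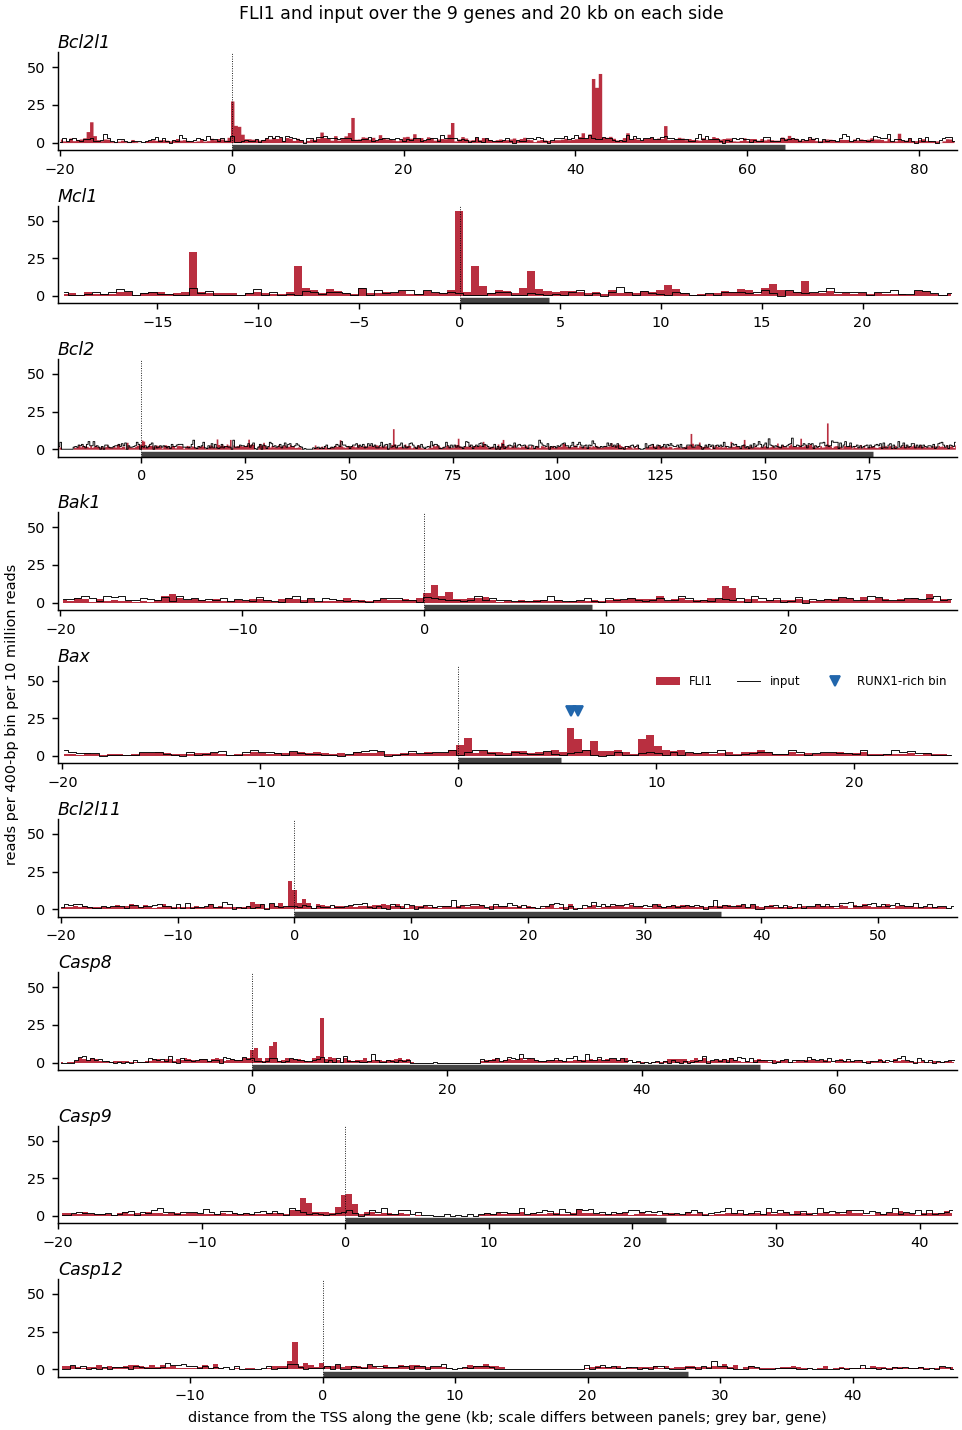
FLI1 (red) and input (black line) reads in 400-bp bins, scaled to the same library depth, against the distance from the TSS in kb, over each gene and 20 kb on each side, with grey bars for genes and blue triangles for RUNX1-rich bins. FLI1 is concentrated at the start of Mcl1 and 42.7 kb inside Bcl2l1, scattered in low sites over Bcl2, and the only RUNX1-rich bins lie downstream of Bax.

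The pore-forming genes Bak1 and Bax were under the limit of 2-fold for FLI1 at their starts, at the 73.7 and 60.3 percentiles of all genes. The Bak1 window held 265 FLI1, 10 RUNX1 and 47 input reads, or 1.95-fold (1.42 to 2.72) for FLI1. Bak1 passed the limit with repeated input positions kept, at 2.01-fold, with unshifted reads, at 2.04-fold, and in a window of 1 kb on each side, at 2.61-fold. At starts of other Bak1 transcripts it reached up to 2.27-fold, and in FLI1 reads thinned to the RUNX1 depth it was 1.28-fold. The Bax window held 240 FLI1, 7 RUNX1 and 55 input reads, or 1.51-fold (1.12 to 2.06) for FLI1 and 0.696-fold (0.268 to 1.53) for RUNX1, the lowest RUNX1 value of the 9. Each gene still had a FLI1-rich region in a UTR just inside the gene, 400 bp wide at Bak1 and 800 bp wide at Bax. The summit lay 390 bp downstream of the Bak1 TSS, with 91 FLI1, 0 RUNX1 and 8 input reads, and 349 bp downstream of the Bax TSS, with 80 FLI1, 1 RUNX1 and 4 input reads. Both had an ETS match, at chr17:27165508-27165537 and at chr7:52721916-52721945, each on the plus strand.
Bak1 start: tgcctcttggccCAGGAAacctcgcgactt
Bax start: ccaggccaccagCAGGAAgtggcgccagcg
Bak1 had further regions in an intron, 1.41 kb from its TSS, and 16.7 kb downstream in an intron of Ggnbp1, with 40 and 85 FLI1 reads within 200 bp of the summit. Ggnbp1 reaches into Bak1 on the other strand and has a transcript start within 2 kb of both summits near the Bak1 start. Reads there and at shared bases cannot be assigned to either gene. The ETS match at the site 16.7 kb downstream is printed from the plus strand at chr17:27149243-27149303.
Bak1 downstream: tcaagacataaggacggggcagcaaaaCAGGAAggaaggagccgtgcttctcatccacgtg

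The only RUNX1-rich bins in the territories of the 9 genes lay downstream of Bax. A bin counts as RUNX1-rich with at least 7 RUNX1 reads and 5-fold over the reads expected from input. Of all bins of the genome with a read, 0.0302% were RUNX1-rich and 0.45% were FLI1-rich. The 2 bins, side by side, had their FLI1 summit 5.86 kb from the Bax TSS, between the end of Bax and the start of Ftl1, the gene of ferritin light chain. One held 10 RUNX1, 115 FLI1 and 4 input reads and the other 7, 72 and 5. Together they had 17 RUNX1 reads, 10 on the plus and 7 on the minus strand, where the input predicted 1.65, which is 10.3-fold (4.36 to 26.3). As the bins were picked by their RUNX1 reads, a ratio well above 1 was set by the choice. FLI1 was 7.18-fold (3.70 to 15.9) over the same bases. There was no ETS match within 50 bp of the FLI1 summit, though the stretch below holds GGAA on its minus strand. The sequence beside it, on the plus strand at chr7:52716410-52716470, holds 2 copies of the RUNX sequence TGTGGT.
Bax downstream: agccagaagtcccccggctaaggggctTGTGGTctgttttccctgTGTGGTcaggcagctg
Further regions lay at the Ftl1 start, with 63 FLI1, 1 RUNX1 and 1 input reads, and 9.53 kb downstream of the Bax TSS, where 102 FLI1, 5 RUNX1 and 7 input reads were counted. The site with the RUNX1-rich bins is within 2 kb of the Ftl1 TSS, and which gene it belongs to cannot be told apart from these reads. With a minimum of 5 RUNX1 reads, 8 bins of the 9 territories counted as RUNX1-rich, and with 10 reads 1 did.

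Bcl2l11, whose product BIM activates BAK and BAX, had a single FLI1-rich region, at its start. Its TSS window held 366 FLI1, 11 RUNX1 and 45 input reads, or 2.81-fold (2.06 to 3.92) for FLI1 and 1.34-fold (0.624 to 2.63) for RUNX1. In a window of 1 kb on each side FLI1 was 4.65-fold over input. The region was 800 bp wide, and its summit lay 0.339 kb upstream of the TSS with 129 FLI1, 0 RUNX1 and 5 input reads. None of the searched ETS, RUNX, NF-E2 or GATA sequences occurred within 50 bp of the summit. The remaining 190 bins of the territory were at 0.889-fold (0.824 to 0.960) for FLI1.

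**Figure D3:**
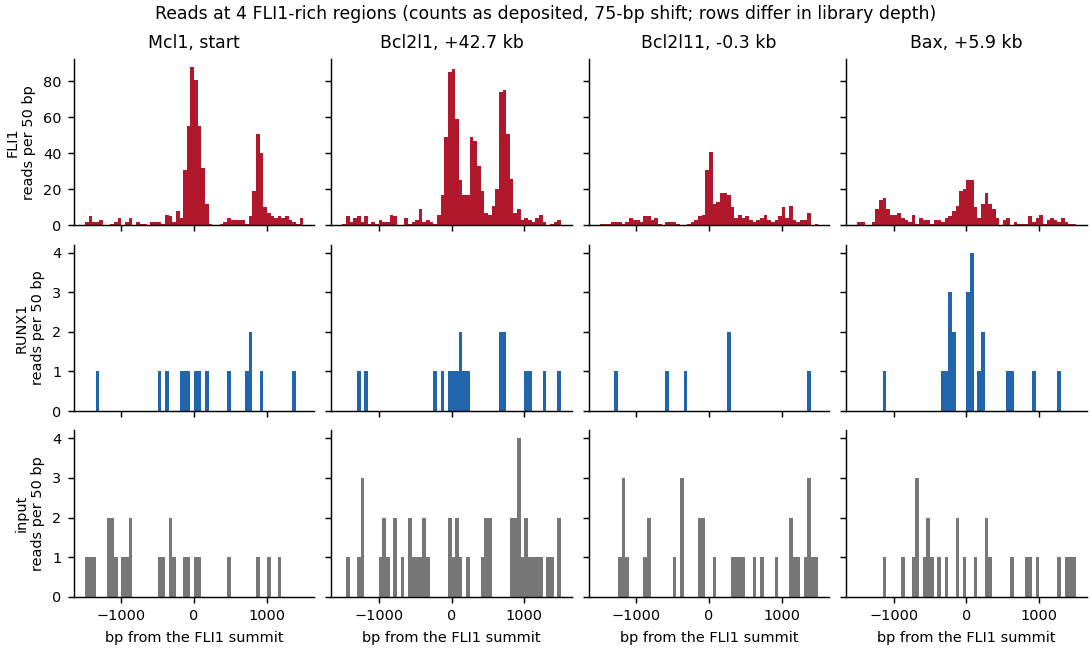
FLI1, RUNX1 and input reads per 50 bp within 1500 bp of the FLI1 summit at 4 regions, as counts of each library, so that rows differ in depth. FLI1 is sharp at the Mcl1 start, has 3 crests in the Bcl2l1 intron and is lower at Bcl2l11 and downstream of Bax, where RUNX1 reaches 4 reads per 50 bp.

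Casp9, the initiator caspase of the mitochondrial route, had the highest FLI1 within 2 kb of its start after Mcl1 and Bcl2l1, but this rank depended on the setting. Bcl2l11 was above Casp9 in a window of 1 kb (4.65- against 4.16-fold) and against the genome-wide rate (2.72- against 2.55-fold). The same held in thinned reads (2.92- against 2.45-fold), and Bcl2l11 was below Casp9 in the other settings. Over all transcript starts Casp8 was above Casp9 (3.40- against 3.12-fold). The Casp9 TSS window held 343 FLI1, 16 RUNX1 and 38 input reads, or 3.12-fold (2.23 to 4.48) for FLI1 and 2.30-fold (1.20 to 4.23) for RUNX1. Its promoter region was 1200 bp wide, with 227 FLI1, 8 RUNX1 and 17 input reads in all and an ETS match near the summit in the 5′ UTR, at chr4:141349717-141349746 on the plus strand.
Casp9 start: ggaacccgagggCCGGAAgcggacagaacc
A second region 2.73 kb upstream of the Casp9 TSS lay over the start of Dnajc16, which is transcribed in the opposite direction. There 102 FLI1, 6 RUNX1 and 4 input reads were counted within 200 bp of the summit, with none of the searched sequences. One of its bins had 6 RUNX1 reads and was 6.57-fold over the expected reads, just under the minimum count. Outside the FLI1-rich bins the Casp9 territory was low, at 0.687-fold (0.629 to 0.751) for FLI1 and 0.724-fold (0.582 to 0.893) for RUNX1.

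Casp8, the initiator caspase of death receptors, had more FLI1 inside the gene than at its start. The TSS window held 223 FLI1, 13 RUNX1 and 36 input reads, or 2.14-fold (1.50 to 3.13) for FLI1 and 1.98-fold (0.962 to 3.82) for RUNX1. In FLI1 reads thinned to the RUNX1 depth it was 1.06-fold, which ends this call. The promoter summit lay 252 bp downstream of the TSS with 65 FLI1, 1 RUNX1 and 7 input reads and an ETS match at chr1:58852452-58852481, plus strand.
Casp8 start: gccggcgtggaaCAGGAAgtgagtacagtt
An intronic site 2.17 kb downstream held 142 FLI1, 3 RUNX1 and 10 input reads, 2 matches to CAGGAA and 1 to TGTGGT. The site with the most FLI1 reads within 200 bp of its summit, 7.11 kb downstream, held 193 FLI1, 1 RUNX1 and 8 input reads and none of the searched sequences. It lay at the start of a shorter Casp8 transcript, around which FLI1 was 3.40-fold over input.

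Casp12, a caspase of the inflammatory group, had 1 FLI1-rich bin, upstream of its start. The TSS window held 170 FLI1, 8 RUNX1 and 23 input reads, or 2.55-fold (1.65 to 4.14) for FLI1 and 1.90-fold (0.736 to 4.41) for RUNX1. Input was the lowest of the 9 windows here, and measured against the genome-wide rate in place of input FLI1 was 1.26-fold, which ends this call. Input was also low over the whole territory, with 5.96 reads per kb against 11.6 at the genome-wide rate, and 20.1% of its bins had no input read. Its part in the raised ratios of the territory, 1.41-fold (1.26 to 1.57) for FLI1 and 1.51-fold (1.21 to 1.86) for RUNX1, was not tested. The occupied site, 2.10 kb upstream of the TSS, held 111 FLI1, 3 RUNX1 and 8 input reads. An ETS match and a RUNX match stood close together on the same strand, shown from the plus strand at chr9:5343334-5343394.
Casp12 upstream: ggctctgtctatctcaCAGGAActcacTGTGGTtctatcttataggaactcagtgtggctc

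Across the 9 territories, 49 of 1895 bins were FLI1-rich, or 2.59% against 0.45% of the genome. Each of the 9 genes had at least 1 FLI1-rich bin, as did 61.7% of all protein-coding genes with 20 kb on each side. Bax was the 1 gene of 9 with a RUNX1-rich bin, against 9.8% of all genes. Both RUNX1-rich bins were FLI1-rich, so that 2 of the 49 FLI1-rich bins were also RUNX1-rich, against 3.03% of the FLI1-rich bins of the genome. The share of FLI1-rich bins in a territory had a median of 3.21% over the 9 genes and 0.658% over all genes, and ranged from 0.592% at Casp12 to 8.11% at Mcl1. The FLI1-rich bins formed 33 regions, placed by the 1 of the 9 genes whose territory held them. Of these, 9 lay within 2 kb of its TSS, 12 elsewhere inside it, 7 downstream and 5 upstream. Median coverage at the summit was 64 reads against 58 over the regions of the genome, and 3 of the 33, the Mcl1 start, the Bcl2l1 intron and the site 13.3 kb upstream of Mcl1, were among the top 10% of regions.

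RUNX1 reads were too few to call at most of these sites, and were therefore summed over the bins chosen by FLI1. In the 49 FLI1-rich bins there were 116 RUNX1 reads, where input predicted 40.6, which is 2.86-fold (2.26 to 3.60). The FLI1-rich bins of the genome gave 2.80-fold, so that the 9 genes stood within counting error of that value. The plus strand alone, which takes only 1 end of any fragment read from both ends, gave 3.36-fold (2.44 to 4.60). In the other 1846 bins of the 9 territories RUNX1 was 1.02-fold (0.962 to 1.07). By the strength of FLI1, RUNX1 was 2.12-fold (1.44 to 3.06) in bins with FLI1 at 3- to 5-fold, 3.28-fold (2.32 to 4.61) at 5- to 10-fold and 4.69-fold (2.36 to 9.25) at 10-fold or more. The 3 intervals overlapped, and the same steps over the genome were 2.27-, 3.21- and 5.26-fold. The steps are of FLI1 over the expected reads, whereas RUNX1 is over the input in the bins alone, so that low input in a bin raises the RUNX1 ratio and not the step.

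By gene, RUNX1 in the FLI1-rich bins was 4.98-fold (2.93 to 8.41) at Bax, 3.98-fold (2.25 to 6.94) at Mcl1, 3.28-fold (1.61 to 6.48) at Casp9 and 3.13-fold (1.89 to 5.07) at Bcl2l1. The intervals of these 4 genes lay above 1. At Bax, 17 of the 30 RUNX1 reads were at the site near the Ftl1 start, and without it the ratio was 2.96-fold (1.39 to 6.06), below those of Mcl1, Casp9 and Bcl2l1, with intervals that overlap. Without that site the 9 genes together were at 2.54-fold (1.98 to 3.24). Of the other RUNX1 reads at Bax, 9 were in the region 9.53 kb downstream of its TSS. The Bax promoter region held 3, at 2.05-fold (0.351 to 8.55). At Casp9, 7 of the 15 RUNX1 reads were in the region over the Dnajc16 start. The Casp9 promoter region alone was at 2.575-fold, with an interval of 0.962 to 6.30 that includes 1. At Bcl2, Bak1, Bcl2l11, Casp8 and Casp12 the ratio was between 1.22 and 1.56, with 2 to 6 RUNX1 reads each, and RUNX1 was not detectable there at this depth. Differences between the genes were not tested, and the interval of each of these 5 reached above 3-fold.

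**Figure D4:**
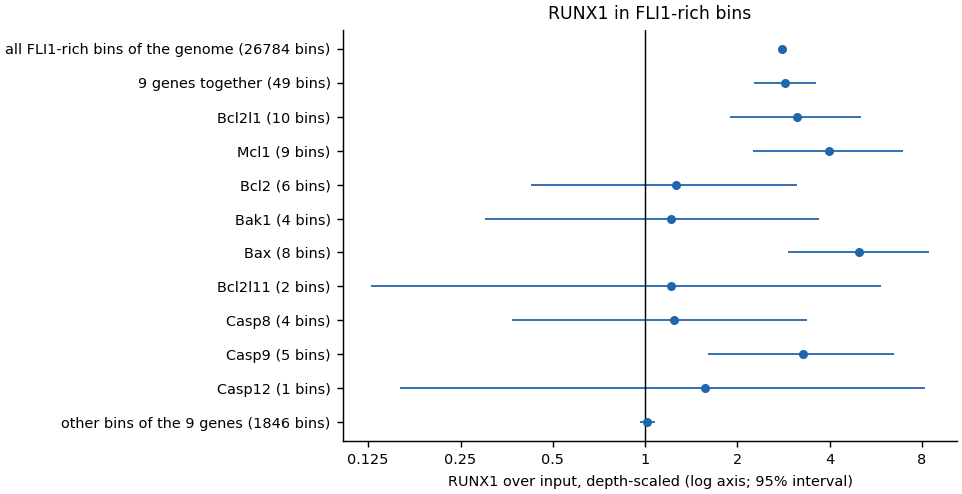
Depth-scaled RUNX1 reads over input in FLI1-rich bins, on a log axis with 95% counting intervals, for each gene, the 9 genes together and the genome, with the other bins of the 9 territories at the bottom. Bax, Mcl1, Casp9 and Bcl2l1 lie above 1, and the 9 genes together lie at 2.86-fold beside 2.80-fold for the genome. The bins of Bax and Casp9 include regions at the starts of Ftl1 and Dnajc16.

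ETS sequences marked the summits at these genes as they did in the genome. CAGGAA or CCGGAA, on either strand, occurred within 50 bp of 21 of the 33 summits, or 63.6%, against 62.0% of the summits of all regions. In windows of the same length 2 kb away the share was 15.2% at the 9 genes and 11.5% over all regions. The match was found at 8 of 9 promoter summits and at 13 of the 24 others. Windows of this length centred on the TSS of all protein-coding genes held it in 19.9%. Those windows were not chosen by FLI1, so that they are not a like comparison, and promoter summits of all regions were not tallied. RUNX sequences, TGTGGT or TGCGGT, occurred at 5 of 33 summits and in 6 of 33 windows 2 kb away, and at 18.4% of all summits. The NF-E2 sequence TGANTCA occurred at 3 summits, 2 at Mcl1 and 1 at Bcl2l1, against 5.89% of all summits. GATA sequences, AGATAA or TGATAA, occurred at 5 of 33 summits, 3 of them at Bcl2, or 15.2% against 14.0% of all summits and 9.09% of the windows 2 kb away. Among the summits, 7 of 33 had none of these sequences. Regions and summits were picked by FLI1 reads, so that a high FLI1 summit and a fall around it were set by the choice. FLI1 reads within 200 bp of the 33 summits were 7.63-fold (6.54 to 8.96) over input and fell to 2.26-fold (1.99 to 2.57) at 600 to 1000 bp. RUNX1 was 2.54-fold (1.92 to 3.34) and 1.52-fold (1.17 to 1.96) at these distances. The outer windows also take in neighbouring summits, such as the 2 at the Mcl1 promoter, and the Bcl2l1 crest at about 725 bp.

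Among 39 other genes of the apoptosis pathway, FLI1 was at least 2-fold over input at 14, or 35.9% against 25.2% of all genes. RUNX1 reached it at 11, or 28.2% against 16.7%. The medians were 1.86-fold for FLI1 and 1.30-fold for RUNX1. Of the 11 RUNX1 calls, that of Bcl2a1a, at 3.65-fold (0.305 to 31.85), rests on 2 RUNX1 and 3 input reads. The highest FLI1 was found at Cflar, which encodes the caspase 8 inhibitor FLIP, at 4.21-fold (2.88 to 6.37), at Bid, which links caspase 8 to the mitochondrion, at 4.11-fold (2.83 to 6.18), and at Birc3, an inhibitor of apoptosis gene, at 3.93-fold (2.72 to 5.88). RUNX1 was past 2-fold at the same 3 starts, at 3.40-, 2.74- and 2.82-fold. The lowest FLI1 was found at Bcl2a1b, at 0.247-fold (0.0618 to 0.903), Bcl2a1d, at 0.576-fold (0.268 to 1.29), and Bcl2l10, at 0.601-fold (0.443 to 0.820). Bcl2a1b and Bcl2a1d, known as close copies of one gene, had 7 and 12 input reads in their windows, and these values are uncertain. How uniquely reads map there was not tested. By role, 4 of 7 other BH3-only genes, 4 of 9 genes of death receptors, their ligands and adaptors, 2 of 6 mitochondrial and apoptosome genes, 1 of 4 inhibitor of apoptosis genes, 1 of 3 executioner, 1 of 2 inflammatory and 1 of 1 other initiator caspases were past 2-fold for FLI1. None of the 5 other pro-survival BCL2 genes, the 1 other pore-forming gene and the 1 remaining caspase was. The groups are too small to set against the 25.2% of all genes. Among pro-survival genes, the FLI1 folds of Mcl1 and Bcl2l1 were above those of Bcl2 and of the 5 others, whose highest was 1.73-fold. That value is from Bcl2a1a, named after its value was seen, with 3 input reads and an interval of 0.489 to 9.31 that covers both genes, so that they are not shown to differ from it.

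**Figure D5:**
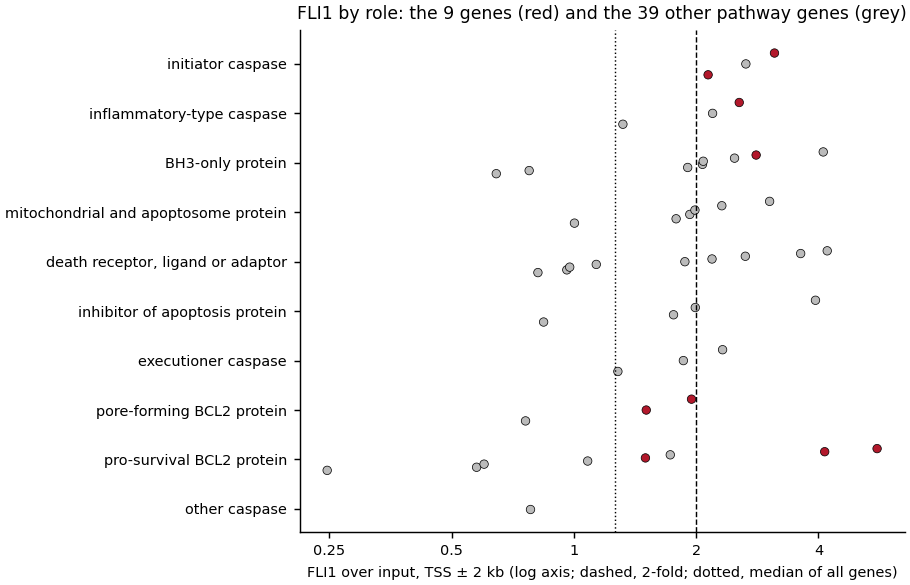
FLI1 over input within 2 kb of the TSS, on a log axis, for the 9 genes (red) and 39 other apoptosis genes (grey), grouped by role, with the 2-fold limit dashed and the median of all genes dotted. Mcl1 and Bcl2l1 lie at 5.58-fold and 4.15-fold, and the 6 other pro-survival genes at 1.73-fold or less, of which Bcl2a1a, from 3 input reads, has an interval of 0.489 to 9.31.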

How the data were processed

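The authors deposited, for each of the 3 libraries, read positions on mm9 (other unit: chromosome, start, end and strand), mapped with Bowtie, whose version is not given in the sources used here. Per the labels, MACS 1.4 and SICER 1.1 were also among their tools, and neither was rerun here. Reads were 50 bp in both ChIP libraries, with no repeated position, and 34 bp in the input, where 3.24% of reads repeated a position and were reduced to 1 per position and strand. How the input was fragmented, which kit made the libraries and the embryonic day are given differently in the labels and in the study's methods. The methods describe micrococcal nuclease digestion for the input control and sonication of chromatin for the factor antibodies. The effect of such a difference on the ratios over input was not tested. Of sampled reads, 96.9% (FLI1) and 98.4% (RUNX1) matched mm9 with at most 3 mismatches.

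Every count was made here by counting reads shifted 75 bp in their 3′ direction. Ratios are reads over input after division by library totals. The TSS is the 5′ end of the GENCODE M1 gene record, with 2 kb on each side. Expected reads in a 400-bp bin are the highest of the input in the bin, the input over 10 kb around it and the genome-wide rate over an effective genome of 1.87e+09 bp. Motifs were searched on both strands within 50 bp of summits, which are the bases covered by most reads drawn out to 150 bp, and in windows 2 kb away. Ratios between neighbouring genes have approximate intervals from the log scale. With 1 library per antibody no test was made, and precision is set by counts alone, so that RUNX1, the shallowest library, is the least precise.

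All 9 genes, the 3 highest and 3 lowest other pathway genes and neighbours with a rich bin within 2 kb of their TSS are named, and sequences are those of motif matches at the region whose bin is highest over the expected reads, at and away from each start. Genes and lists were chosen with earlier results of these data known. One listed marker, Ela2, was not found in the annotation. Alternatives changed the input reference, repeated positions, shift, window, TSS, territory, limits, depth and strand. Tools were Python 3.11.15, numpy 2.4.6, scipy 1.17.1, pandas 2.3.3, pysam 0.24.0 and matplotlib 3.10.9. Scripts were tested on simulated data. NF-E2 and H3K4me2 reads were not analysed here.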

Additional observations from a re-analysis of the deposited data

How the results depend on the processing

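Among the results that answer a comparison, 39 values stayed within the stated error or 1.5 times the count, and 11 moved beyond it. For the counts and medians only these outcomes were possible, so that a reversal could not show in them. The count of genes with FLI1 at 2-fold at the TSS was 6 (25.2% of all genes). It was 4 against the genome-wide rate in place of input (17.1%) and 5 in FLI1 reads thinned to the RUNX1 depth (26.15%). It was 7 with repeated input positions kept (25.6%), without the shift (24.9%), over every transcript start (27.2%) and in a window of 1 kb (36.9%). With a limit of 1.5-fold it was 8 (39.9%), and with 3-fold it was 3 (9.19%). The count for RUNX1 was 3 and became 1 against the genome-wide rate in place of input (5.64% of all genes), 5 in a window of 1 kb (29.1%), 6 with a limit of 1.5-fold (33.6%) and 0 with 3-fold (4.18%). The 49 FLI1-rich bins became 75 with a limit of 2-fold (0.925% of bins with a read), 23 with 5-fold (0.188%) and 17 (0.142%) in FLI1 reads thinned to the RUNX1 depth with the limits used for RUNX1. The 2 RUNX1-rich bins became 8 with at least 5 reads (0.268% of bins with a RUNX1 or input read), 1 with at least 10 reads (0.00512%) and 5 in plus-strand reads with at least 4 (0.0968%). Where only a limit changed, a looser limit could only add genes or bins and a stricter one only remove them. The cause of the other moves was not tested. RUNX1 over input in FLI1-rich bins was between 2.62- and 3.54-fold, and 2.54-fold without the site downstream of Bax, a setting chosen after seeing the data. For single genes 101 values stayed within their counting interval and 7 moved, all for FLI1. Of the 7, Bcl2l1 was 6.14-fold in a window of 1 kb, and the others are given above. RUNX1 intervals come from few reads and are wide, so that staying within them shows little. A value can also stay within its interval while its call ends, as RUNX1 did at Bcl2l1 and Casp9 against the genome-wide rate. No paired analysis was possible because each group has 1 library. The depth of the RUNX1 file is a limit, since a bin needs several times the genome-wide rate to reach 7 reads.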
